A study of Mus musculus with 12 samples.

Results

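The genes described here are 36 genes of the endoplasmic reticulum (ER) and the early secretory pathway in the mouse aorta: 11 chaperones and co-chaperones, 4 protein disulfide isomerases, 6 stress sensors and stress transcription factors, 4 genes of ER-associated degradation, 5 genes of protein translocation, 3 genes of the COPII coat and 3 KDEL receptors. They were listed by name, with earlier results of these data known, and 31 of the 36 had enough counts to be tested, among 12239 named genes tested. The study sequenced aortic RNA of 12 C57BL/6J mice, all male and 10 weeks old, in 3 groups of 4 libraries. The control group (here saline) had saline infused into the infrarenal aorta and was harvested on day 7, while porcine pancreatic elastase (PPE), which degrades elastic fibres and is used to model abdominal aortic aneurysm, was infused in the same way in the groups harvested on day 7 (PPE week 1) and on day 14 (PPE week 2). All 3 groups shared strain, sex and the infusion itself. Both comparisons with saline used the same 4 control libraries, and since these were from day 7, days since infusion and elastase cannot be told apart at week 2.

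Secreted and membrane proteins enter the ER through the SEC61 channel, fold with the help of chaperones and disulfide isomerases, and leave in vesicles coated by COPII. KDEL receptors bring escaped ER residents back from the Golgi, and proteins that fail to fold are pulled out and degraded. When unfolded proteins accumulate, the sensors IRE1 (Ern1), PERK (Eif2ak3) and ATF6 start the unfolded protein response, which raises chaperone transcription through XBP1, ATF4 and cleaved ATF6. In the vessel wall the pathway carries the large load of collagen and elastin made by smooth muscle cells and fibroblasts.

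The promoters of these genes are known for stress response elements, to which ATF6 and XBP1 bind together with NF-Y, and they are shown first because the genes below differ in holding one. RefSeq promoters of GRCm38.p6 (250 bases before to 50 after the start; 30 members matched, the others being Atf6, Hyou1, Kdelr2, Manf, Sec61a1 and Ssr2) were searched on both strands. The ER stress response element, ERSE, was searched as CCAAT and CCACG with 9 bases of any kind between them, ERSE-II as ATTGG and CCACG with 1 base between them, the core of the unfolded protein response element, UPRE, as TGACGTGG, and the C/EBP-ATF element as TGATGNAA. ERSE and the UPRE core share the letters CCACG, so that their matches can overlap. The following stretches run 5′ to 3′ on the strand of the gene, with the fixed letters of the match in capitals: a pair of ERSE matches in Hsp90b1 (chr10:86705523-86705666, minus strand) and 1 match each in Dnajc3 (chr14:118937817-118937855, plus strand), Calr (chr8:84847065-84847103, minus strand) and Pdia6 (chr12:17266481-17266519, plus strand), and the UPRE core in Kdelr3 (chr15:79516368-79516395, plus strand).
Hsp90b1: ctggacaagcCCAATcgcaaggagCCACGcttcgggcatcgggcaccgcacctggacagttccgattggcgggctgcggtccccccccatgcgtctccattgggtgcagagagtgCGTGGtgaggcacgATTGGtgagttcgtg
Dnajc3: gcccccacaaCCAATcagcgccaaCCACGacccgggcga
Calr: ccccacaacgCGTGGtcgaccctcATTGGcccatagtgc
Pdia6: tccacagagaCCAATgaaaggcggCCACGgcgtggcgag
Kdelr3: ggccgccccgCCACGTCAccgcgcggcc

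ERSE was found in 8 of the 30 members (Calr, Canx, Creld2, Dnajc3, Hsp90b1, Hspa5, Pdia6 and Syvn1), against 37 of 27025 genes in the whole promoter table (0.137%). Since promoters of these genes are known for such elements, a higher share among the members was foreseen and is no result of these data. ERSE-II was in 2 members (Dnajb11 and Herpud1) and 0.0444% of all genes, the UPRE core in 2 (Kdelr3 and Sec24d, the latter at a start inside the annotated span of the gene) and 0.714%, and the C/EBP-ATF element in 2 (Herpud1 and Kdelr1) and 4.51%. A match describes letters in a window and not a bound site. The genes that fell, described below, included genes with and without an ERSE. Of the 6 tested genes with an ERSE, Hsp90b1 and Dnajc3 fell at week 2 and the other 4 did not pass the test, while P4hb, Pdia3, Ssr1 and Ssr3 also fell and held none of the 4 motifs in this window.

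Libraries held 8343313 to 12269131 counts in all, with no group difference past the test (two-sided exact permutation test, p = 0.543 for week 1 and 0.943 for week 2 against saline, and 0.429 between the PPE groups). The share of a ribosomal RNA precursor in these counts was 36.2 to 49.9% in saline, 21.0 to 34.6% in PPE week 1 and 19.5 to 22.1% in PPE week 2 (exact permutation p = 0.0286 for each PPE group against saline, the smallest p that 4 against 4 allow, and 0.0571 between the PPE groups). Levels below are counts per 1000000 counts of a library (CPM) after TMM scaling, a scaling that assumes that most features do not change, and log2 fold changes carry their standard error. A gene is said to have risen or fallen where edgeR's quasi-likelihood test gave a Benjamini-Hochberg adjusted p under 0.05 over 12756 RefSeq accessions. In whole tissue, fewer cells of a type and less RNA per cell cannot be told apart.

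The 5 members that could not be tested include the best known ones. Hspa5 (BiP, the main ER chaperone) had 5 counts over its 2 accessions and all 12 libraries, Sec23b (a COPII coat protein) 14 over 5 accessions, and Canx (calnexin, a lectin chaperone), Xbp1 and Atf4 (the transcription factors of the IRE1 and PERK branches) were at 0. It appears that reads which match more than 1 isoform were not counted, so these values say nothing of the genes' expression. For the 5 tested members with several accessions (Dnajb11, Eif2ak3, Ddit3, Sel1l and Syvn1) a level is that of the part unique to 1 accession. The same holds for genes of the other lists below that have more than 1 isoform.

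Per kilobase of transcript, which puts genes on 1 scale, the 26 members with a single accession spanned a wide range in saline. The highest 4 were luminal folding proteins: Hsp90b1 (GRP94, the ER form of HSP90) at 393 ± 40.4 CPM per kb, Calr (calreticulin, a lectin chaperone) at 389 ± 38.9, Pdia3 (a disulfide isomerase that works with calreticulin on glycoproteins) at 321 ± 34.9 and P4hb (protein disulfide isomerase, also a subunit of collagen prolyl 4-hydroxylase) at 276 ± 26.3 (SD, n = 4). Neighbours among these 4 lay within 2 SD of each other. The next was Kdelr2 at 109 ± 13.8 CPM per kb, and the lowest were Sdf2l1 (a co-chaperone of BiP) at 8.81 ± 3.77 and Ern1 at 8.66 ± 2.55.

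One week after elastase, few folding and secretory genes differed from saline. Dnajc3 (p58IPK, a co-chaperone of BiP) was the 1 member that fell, no member rose, and the median log2 fold change of the 31 members was -0.06, against 0.00 over all features. Over all features 3.91% were called lower and 3.98% higher (7.89% in all), so that 1 of 31 members is near that background. At an unadjusted p under 0.05, 2 members were lower and 2 higher, DESeq2 called 1 higher (Ssr2) and 2 lower (Dnajc3 and Kdelr3), and limma-voom called 0 higher and 1 lower. With libraries scaled by their total count alone the median turned to 0.23, beside 0.28 over all features, Atf6 and Ssr2 were called higher and Dnajc3 was not called (-0.22, adjusted p = 0.465). With the share of the ribosomal RNA precursor as a covariate no member was called (1 lower and 3 higher at an unadjusted p under 0.05). The libraries of 2 members (Sec61a1 and Ssr2) lay wholly above saline and those of 1 (Dnajc3) wholly below, where 12.1% of all features lay wholly above and 9.01% wholly below. The adjusted p of Dnajc3 was 0.0543 to 0.0722 without any one of saline replicates 3 and 4 and PPE week 1 replicates 1, 3 and 4, which left no member called.

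By week 2, chaperones, disulfide isomerases, subunits of the translocon-associated protein complex and a KDEL receptor were lower than in saline. The 7 genes that fell were Hsp90b1, Dnajc3, P4hb, Pdia3, Ssr1, Ssr3 and Kdelr3, by 1.39-fold to 1.66-fold, and none rose (0 at an unadjusted p under 0.05, and 0 by DESeq2 and limma-voom, which called 10 and 6 lower). That is 22.6% of the 31 members, where 1.35% of all features were called lower and 1.30% higher (2.65% in all). The median log2 fold change was -0.47, against 0.05 over all features, and 27 of the 31 members had a fold change below 0, against 46.3% of all features. The 4 PPE week 2 libraries lay wholly below the 4 saline libraries for 10 members and wholly above for none, where 4.44% and 4.55% of all features did. Well-counted genes are called more often: among features of at least 100 CPM, a limit chosen after the data were seen, 6.16% of 1299 were called lower, beside 6 of the 18 members at that level.

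These week 2 counts rested on single libraries and on a scaling other than by total count alone. Leaving out saline replicate 2 or 3 left 3 members called lower, and 4 were left without saline replicate 4, without replicate 3 or 4 of PPE week 1 and without replicate 1 of PPE week 2, while P4hb, Pdia3 and Ssr3 were called in every one of the 12 fits that left out a library. A fit of only the 8 libraries compared called 2 members lower (Pdia3 and Ssr3) and not P4hb. With DESeq2's size factors 8 members were called lower (median -0.48). With total counts that leave out the ribosomal RNA precursor 5 were called lower (median -0.41). With libraries scaled by their total count alone, which includes that precursor, no member was called lower (0 also at an unadjusted p under 0.05). In that fit 2 were called higher (Atf6 and Ern1). Under that scaling the median moved to 0.04, but the median over all features moved to 0.54, so that the members stood -0.49 from it, beside -0.52 under TMM. With the share of the ribosomal RNA precursor as a covariate, neither a member nor any other feature was called (2 members lower at an unadjusted p under 0.05), and since that share did not overlap between saline and PPE week 2, the 2 cannot be told apart.

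**Figure D1:**
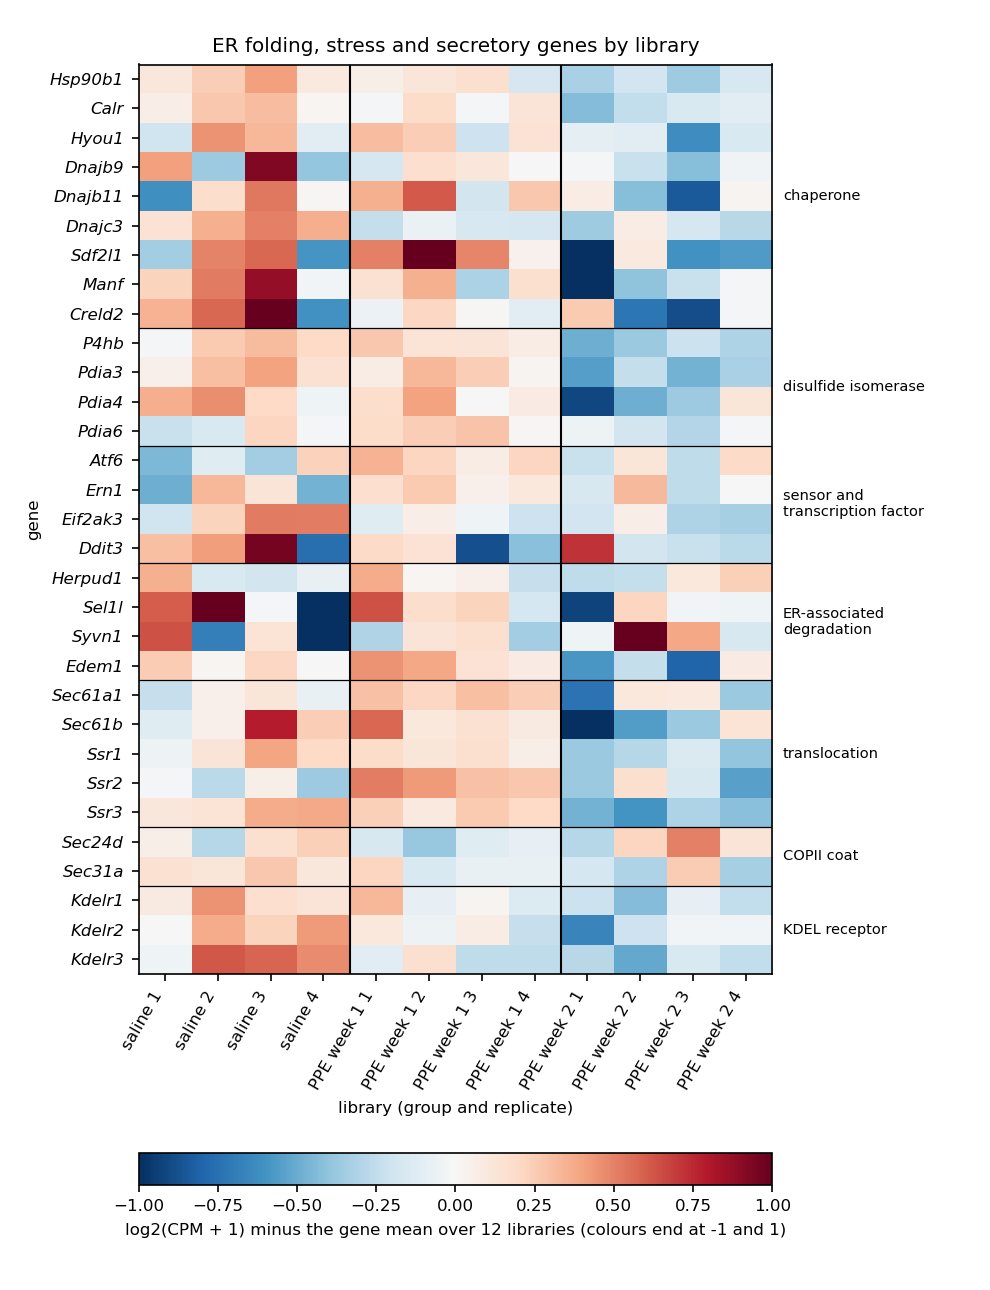
Each row is 1 of the 31 tested genes, grouped by role, and each column 1 of the 12 libraries; colour gives log2(CPM + 1) minus the gene's mean over the 12 libraries. The 4 PPE week 2 columns are mostly on the low side. The score per library described below, a median of log2 CPM with a prior count of 2 and not of the plotted values, was between -0.32 and -0.14 there. In the other 8 libraries it was between 0.02 and 0.32.

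From week 1 to week 2 after elastase, 6 genes of folding, degradation and translocation fell. P4hb, Pdia3, Edem1, Ssr1, Ssr2 and Ssr3 were called lower (19.4% of 31, where 2.82% of all features were called lower and 3.77% higher, 6.59% in all), and none rose (1 at an unadjusted p under 0.05, Sec24d, and 0 by DESeq2 and limma-voom, which called 7 and 6 lower). The median was -0.30, against 0.02 over all features, and 28 of 31 members had a fold change below 0, against 48.7% of all features. The libraries of 9 members lay wholly below those of week 1 and of 0 wholly above, where 8.68% and 7.24% of all features did. At 100 CPM or more, 10.2% of features were called lower and 6 of the 18 members. The count was 3 when PPE week 1 replicate 1, 2 or 3 was left out, likewise for PPE week 2 replicate 1, 3 in a fit of only the 8 libraries compared (P4hb, Pdia3 and Ssr3), and 0 with scaling by total count (4 at an unadjusted p under 0.05) or with the ribosomal share as a covariate (7 at an unadjusted p under 0.05).

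A score per library, the median over the 31 members of log2 CPM after the mean over all 12 libraries was subtracted, showed the same order. It was 0.06, 0.24, 0.32 and 0.02 in the saline libraries, 0.19, 0.21, 0.07 and 0.02 in PPE week 1, and -0.32, -0.23, -0.25 and -0.14 in PPE week 2. The PPE week 1 libraries lay within the range of saline, and all 4 PPE week 2 libraries lay below every other library. The same score over all features was between 0.00 and 0.09 in all 12.

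**Figure D2:**
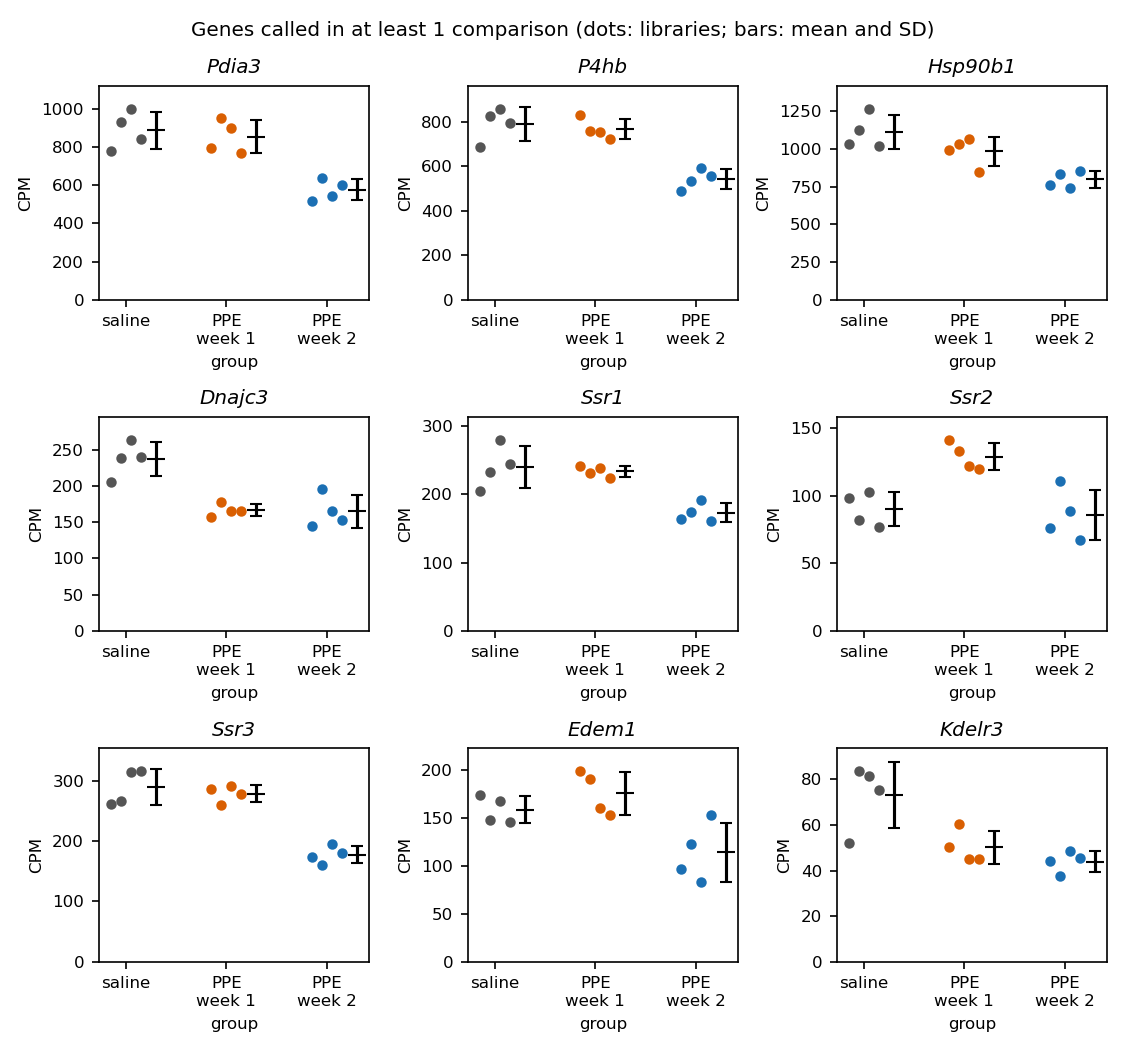
Levels in CPM (linear axes from 0) of the 9 genes called in at least 1 comparison; each dot is 1 library and the bars give the mean and SD of the 4 libraries of a group. Pdia3, P4hb and Ssr3 show PPE week 2 below both other groups with no overlap, while Dnajc3 is already lower at PPE week 1 and Ssr2 is high at PPE week 1.

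Among the chaperones, Hsp90b1 (chromosome 10, 86690841 to 86705444 in GRCm38.p6), which folds integrins and other surface proteins, was counted at 1029.7, 1127, 1265 and 1019 CPM in saline. It was at 989.7, 1034, 1062 and 849 CPM in PPE week 1 and at 760.1, 833, 742 and 854 CPM in PPE week 2. The saline and PPE week 2 libraries did not overlap, while PPE week 1 overlapped both of the other groups. Its mean fell from 1110.3 ± 114 to 797 ± 54.3 CPM (SD, n = 4), 1.39-fold lower (-0.48 ± 0.11, edgeR adjusted p = 0.0250), and the fold change at week 1 was -0.17 ± 0.11 (adjusted p = 0.378). Without saline replicate 2 or 3 the adjusted p at week 2 was 0.0594 and 0.0950, and with scaling by total count the fold change was 0.02.

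Dnajc3 (chromosome 14, 118937932 to 118981702), which also restrains PERK and other kinases of translation factor eIF2, was at 206, 239, 264 and 239.8 CPM in saline. PPE week 1 gave 157, 177, 166 and 165 CPM and PPE week 2 gave 145, 196, 165 and 153 CPM. All 8 PPE libraries lay below all 4 saline libraries. The mean was 237 ± 23.7 CPM in saline, 167 ± 8.22 in PPE week 1 (-0.51 ± 0.12, edgeR adjusted p = 0.0196) and 165 ± 22.3 in PPE week 2 (-0.53 ± 0.12, adjusted p = 0.0333), and the PPE groups differed by -0.02 ± 0.12 (adjusted p = 0.969). The week 2 call was lost, at 0.0549 to 0.110, without any one of saline replicates 2 to 4, PPE week 1 replicates 3 and 4 and PPE week 2 replicates 1 and 4. The week 1 call was lost, at 0.0543 to 0.0722, without any one of saline replicates 3 and 4 and PPE week 1 replicates 1, 3 and 4. Neither call held with scaling by total count.

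The other 7 tested chaperones did not pass edgeR's test over all 12 libraries in any comparison. At week 2 against saline all 9 tested chaperones had a fold change below 0, from -0.87 to -0.34, but 4 of the 9 with scaling by total count. Calr had a fold change of -0.41 ± 0.11 (edgeR adjusted p = 0.0534), with its PPE week 2 libraries wholly below both other groups. It was called lower under 5 other settings over the same libraries, at an adjusted p of 0.0220 with DESeq2, 0.0454 with limma-voom, 0.0414 with DESeq2's size factors, 0.0396 without the low-count filter and 0.0499 with halved counts, and at 0.0474 without replicate 3 of PPE week 2. Manf (a secreted factor released on ER stress) was at -0.87 ± 0.26 (adjusted p = 0.0838), Hyou1 (GRP170, a nucleotide exchange factor of BiP) at -0.38, Creld2 at -0.72 and Dnajb9 (ERdj4, a BiP co-chaperone that restrains IRE1) at -0.44. Sdf2l1 had the widest swing between the PPE groups, with -1.19 ± 0.42 from week 1 to week 2 (adjusted p = 0.102).

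The disulfide isomerases, which form and reshuffle disulfide bonds, included P4hb and Pdia3, which with Ssr3 had the lowest adjusted p of all members. Pdia3 (chromosome 2, 121413902 to 121438687) was at 781, 933, 999.6 and 841 CPM in saline. It was at 796, 953, 898 and 769 CPM in PPE week 1, which overlapped saline, and at 516, 639.5, 544 and 603 CPM in PPE week 2, where all 4 libraries lay below the other 8. The mean fell from 889 ± 96.7 CPM in saline to 576 ± 55.8 CPM at week 2 (-0.63 ± 0.11, edgeR adjusted p = 0.00830), and by 1.48-fold from the 854 ± 86.6 CPM of week 1 (-0.57 ± 0.11, adjusted p = 0.00668). With scaling by total count neither call held, and the fold change against saline was -0.12. The gene shares 697 bases of its span with Catsper2, and the library kit keeps no strand, so that reads there could belong to either.

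P4hb (chromosome 11, 120560298 to 120573253) was at 684, 824, 857 and 792 CPM in saline. PPE week 1 libraries were at 829.5, 757, 754 and 723 CPM and PPE week 2 libraries at 489, 532, 591 and 556 CPM. As for Pdia3, the first 2 groups overlapped and every week 2 library lay below them. The mean was 789 ± 75.2 CPM in saline, 766 ± 45.2 in PPE week 1 and 542 ± 42.8 in PPE week 2, which was lower than saline (-0.54 ± 0.10, edgeR adjusted p = 0.0111) and lower than week 1 (-0.50 ± 0.10, adjusted p = 0.00883). Scaling by total count lost both of these calls. Pdia4 was at -0.62 ± 0.18 at week 2 against saline (adjusted p = 0.0809) and Pdia6 at -0.09 (adjusted p = 0.774), and neither passed the test in any comparison. Pdia4 was called lower at week 2 against saline by DESeq2 (adjusted p = 0.0374) and by edgeR without the low-count filter (0.0398). Without replicate 4 of PPE week 2, Pdia4 was at -0.84 against saline (adjusted p = 0.0206) and at -0.75 against week 1 (adjusted p = 0.00964).

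The tested sensors and transcription factors of the unfolded protein response did not pass the test in any comparison. Ddit3 (CHOP, the stress factor tied to cell death) was counted 7 to 46 times per library, at 2.96, 3.28, 5.23 and 0.906 CPM in saline, 2.66, 2.54, 0.748 and 1.40 CPM in PPE week 1 and 4.29, 1.82, 1.75 and 1.66 CPM in PPE week 2. The 3 groups overlapped throughout. Its fold change was -0.75 ± 0.77 at week 1 and -0.38 ± 0.76 at week 2 (edgeR adjusted p = 0.663 and 0.866), standard errors that leave changes of more than 2-fold undetectable at this depth, and it overlaps Mbd6 and Mars1 by 77 and 71 bases. Atf6 was at 0.37 ± 0.16 at week 1 (adjusted p = 0.188), Ern1 at 0.23 and Eif2ak3 at -0.37. At week 2 these 3 were at 0.12, 0.08 and -0.49 ± 0.19 (adjusted p = 0.194 for Eif2ak3).

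In ER-associated degradation, Edem1 (chromosome 6, 108824045 to 108859356), a lectin that hands misfolded glycoproteins to the degradation machinery, was at 173, 147, 167 and 145 CPM in saline. It was at 199, 190.1, 160.0 and 153 CPM in PPE week 1 and at 96.7, 123, 82.9 and 153 CPM in PPE week 2. Week 2 lay below week 1, but its replicate 4 came within 1 CPM of week 1 and overlapped saline. Edem1 fell from week 1 to week 2 (-0.62 ± 0.17, edgeR adjusted p = 0.0376), and its fold change against saline was -0.47 ± 0.17 (adjusted p = 0.155). The call was lost, at 0.0578 to 0.116, without any one of PPE week 1 replicates 1 to 3 or PPE week 2 replicates 1 and 3. It was lost with scaling by total count as well. Herpud1, Sel1l and Syvn1 (parts of the ubiquitin ligase complex that degrades ER proteins) did not pass the test, at -0.03, -0.49 and 0.88 ± 0.84 at week 2 against saline.

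The translocon-associated protein complex, which sits beside SEC61 and helps nascent chains enter the ER, had 3 subunits among the members. All 3 fell from week 1 to week 2 (below 0 also with scaling by total count, where none passed the test). Ssr3 (chromosome 3, 65379657 to 65392553), its gamma subunit, was at 262, 267, 314 and 316 CPM in saline, 286, 259, 291 and 278 CPM in PPE week 1 and 174, 159.7, 195 and 181 CPM in PPE week 2. Every week 2 library lay below the other 8. Its mean fell from 289.7 ± 29.6 CPM in saline to 178 ± 14.8 CPM, 1.63-fold lower (-0.71 ± 0.11, edgeR adjusted p = 0.00420) and 1.57-fold lower than the 279 ± 14.2 CPM of week 1 (-0.65 ± 0.11, adjusted p = 0.00323). The call against saline was also lost with scaling by total count.

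Ssr1 (chromosome 13, 37971401 to 37994208), the alpha subunit, was at 205, 232, 279.9 and 244 CPM in saline, 242, 231, 238 and 223 CPM in PPE week 1 and 164, 175, 192 and 161 CPM in PPE week 2. Week 2 did not overlap the other groups. Ssr1 fell by 0.47 ± 0.12 on the log2 scale against saline (edgeR adjusted p = 0.0420) and by 0.43 ± 0.12 against week 1 (adjusted p = 0.0366). The call against saline was lost, at 0.0619 to 0.135, without any library except saline replicate 1 or PPE week 2 replicate 3, and that against week 1, at 0.0588 to 0.0977, without any PPE week 1 library or PPE week 2 replicate 1 or 4. With scaling by total count the fold change against saline was 0.02.

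Ssr2 (chromosome 3, 88579608 to 88588420), the beta subunit, followed another course. It was at 97.9, 81.8, 103 and 76.6 CPM in saline, 141, 133, 122 and 119.5 CPM in PPE week 1 and 75.9, 111, 88.4 and 67.3 CPM in PPE week 2. Week 1 lay above both other groups, which overlapped each other. Its fold change was 0.52 ± 0.16 at week 1 (edgeR adjusted p = 0.0589, called higher by DESeq2, and 0.0358 to 0.0427 without replicate 1, 2 or 4 of PPE week 2), -0.07 ± 0.16 at week 2 (adjusted p = 0.887) and -0.59 ± 0.16 from week 1 to week 2 (adjusted p = 0.0383). That last call was lost, at 0.0641 to 0.111, without any PPE week 1 library or PPE week 2 replicate 1, 3 or 4.

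The channel itself was measured by Sec61a1 and Sec61b. Sec61a1 (chromosome 6, 88503607 to 88518800), the pore subunit, was at 161, 196, 206 and 179.8 CPM in saline, 232, 219, 234 and 225 CPM in PPE week 1 and 113, 204, 202 and 146 CPM in PPE week 2. Week 1 lay above both other groups, yet no comparison passed the test (0.29 ± 0.16 at week 1, edgeR adjusted p = 0.318, and -0.45 ± 0.16 from week 1 to week 2, adjusted p = 0.110). Sec61b was counted 21 to 91 times per library and was at -0.82 at week 2 against saline (adjusted p = 0.403).

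Neither measured COPII gene passed the test. Sec24d (chromosome 3, 123264801 to 123365641), the cargo adaptor that loads procollagen and other cargo, was at 197, 155, 212 and 223 CPM in saline, 169.8, 146, 174 and 179 CPM in PPE week 1 and 155, 219, 268 and 207 CPM in PPE week 2. The groups overlapped. Its fold change was -0.24 ± 0.16 at week 1, 0.11 ± 0.16 at week 2 and 0.35 ± 0.16 from week 1 to week 2 (edgeR adjusted p = 0.442, 0.801 and 0.225). Sec31a, of the outer coat, was at -0.18 and -0.29 at weeks 1 and 2.

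All 3 KDEL receptors had a fold change below 0 in each comparison (1 of 3 with scaling by total count), and Kdelr3 fell. Kdelr3 (chromosome 15, 79516408 to 79527739) was at 52.2, 83.7, 81.5 and 75.4 CPM in saline, 50.1, 60.4, 45.1 and 45.2 CPM in PPE week 1 and 44.4, 37.5, 48.4 and 45.5 CPM in PPE week 2. Saline replicate 1 was the low library of its group, and week 2 still lay below it. The gene fell 1.66-fold at week 2 (-0.74 ± 0.18, edgeR adjusted p = 0.0410), with -0.54 ± 0.18 at week 1 (adjusted p = 0.0775, or 0.0362 without saline replicate 1). The call was lost, at 0.0519 to 0.117, without any library except saline replicate 1 or PPE week 2 replicate 3. It was lost with scaling by total count as well. Kdelr3 shares 44 bases of its span with Ddx17, and reads there could belong to either. Kdelr1 and Kdelr2 were at -0.46 ± 0.14 and -0.48 ± 0.15 at week 2 (adjusted p = 0.106 and 0.109), each with libraries wholly below saline.

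**Figure D3:**
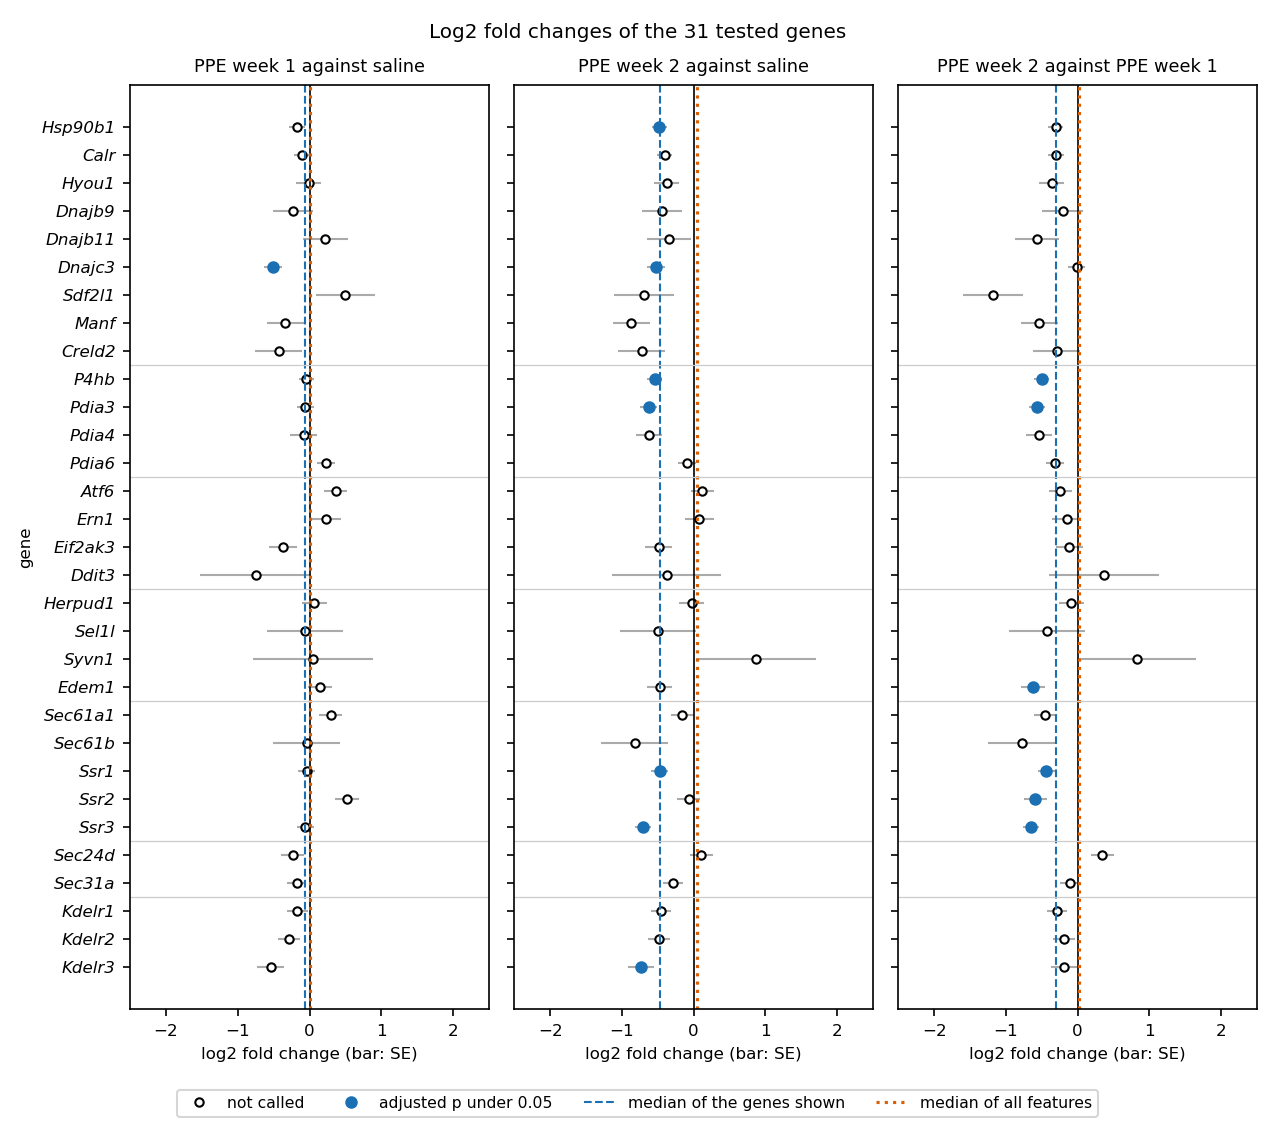
Log2 fold change with its standard error for each of the 31 tested genes in the 3 comparisons, ordered by role; filled marks are genes called at an adjusted p under 0.05. The points scatter around 0 at PPE week 1, with a median of -0.06, and lie mostly to the left of 0 at PPE week 2, with a median of -0.47 against saline and -0.30 against week 1 under TMM (0.04 and -0.10 with scaling by total count).

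The wider pathway, taken from lists of other genes with the same jobs, moved unevenly. Over all features, 3.91% were called lower and 3.98% higher at week 1, and 1.35% and 1.30% at week 2 against saline. Between the weeks these shares were 2.82% and 3.77%. A list with 1 or 2 genes called lower, or 1 called higher, at week 1 is near that background. Of 30 tested genes of translocation, signal peptidase and oligosaccharyltransferase, none rose and 5 fell at week 2 against saline (median -0.36). These were Sec62 and Sec63 (partners of SEC61 in translocation after synthesis, -0.72 and -0.62), and Rpn1, Stt3a and Ostc (subunits of the complex that attaches N-glycans, -0.66, -0.51 and -0.93). Sec62 and Sec63 had fallen by week 1 (-0.62 and -0.45), while Rpn1 was at 169 ± 12.7 CPM in saline, 174 ± 7.45 in PPE week 1 and 107 ± 17.6 in PPE week 2. From week 1 to week 2, 3 of the 30 fell: Rpn1, Stt3a and the ER membrane protein Ckap4 (-0.70, -0.45 and -0.72).

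Among 33 tested genes of other COPII and COPI coat proteins and cargo receptors, 3 fell at week 2 against saline and 1 rose (median -0.28). Copb2, a subunit of the COPI coat that carries cargo back to the ER, fell from 338 ± 25.6 to 213 ± 9.68 CPM (-0.67 ± 0.11, edgeR adjusted p = 0.00420). Copb1 (-0.55) and Copz2 (-0.76), of the same coat, fell as well, and Cope, also of that coat, rose (0.72). At week 1 Copz2 and the COPII gene Sec23a fell (-0.85 and -0.56) and Cope rose (0.62). With DESeq2's size factors Cope was not called at week 1 or week 2 (edgeR adjusted p = 0.0557 and 0.0502). With scaling by total count it was (0.0164 and 0.00219). From week 1 to week 2 Copb2 and the cargo receptors Surf4 and Tmed5 fell (-0.44, -0.58 and -0.88) and none rose.

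Of 25 tested genes of other folding enzymes and glycoprotein control, Uggt2, a sensor of glycoprotein folding, fell at week 1 (-0.84). The sensor Uggt1, at 289 CPM in saline against 55.8 for Uggt2, did not pass the test at week 1 (-0.15, edgeR adjusted p = 0.612). Fkbp14, a prolyl isomerase for collagen, fell at weeks 1 and 2 (-0.59 and -0.85). None of the 25 rose and none fell between the PPE groups (medians -0.10, -0.25 and -0.25). Of 16 tested genes of collagen folding and export, the lysyl hydroxylase Plod3 rose at week 1 (0.77) and fell from week 1 to week 2 (-0.58), and Plod2 fell at week 2 (-1.56). Plod2 has 2 isoforms in the counts, and its level is that of the part unique to 1 of them. That part was at 17.2 CPM in saline and 5.81 in PPE week 2, so a shift between isoforms cannot be told from a fall of the gene. With scaling by total count, none of the falls in these lists and those of translocation and coats passed the test in any comparison. Each of those fold changes stayed below 0. Of 18 tested genes of ER-associated degradation outside the members, none passed the test in any comparison (medians -0.10, -0.08 and -0.05).

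The lists around the stress sensors were mixed. Of 17 tested factors of the unfolded protein response, Bak1, an activator of mitochondrial cell death that also binds IRE1, rose at week 1 (1.23) and fell from week 1 to week 2 (-0.81). Creb3l2, an ER-bound transcription factor of secretory genes, fell at week 1 (-0.64), Ppp1r15b, a regulator of eIF2 dephosphorylation, fell from week 1 to week 2 (-0.46), and none passed the test at week 2 against saline. Of 15 tested targets of ATF4 and CHOP (medians 0.36, 0.01 and -0.15), the cystine transporter Slc7a11 rose at week 1 (2.26 ± 0.57, edgeR adjusted p = 0.0292) and fell from week 1 to week 2 (-2.11). Nupr1 did the opposite (-0.98 at week 1 and 0.61 from week 1 to week 2), and none of the 15 passed the test at week 2 against saline. With scaling by total count, the falls of Bak1 and Slc7a11 between the weeks were not called (edgeR adjusted p = 0.0782 and 0.0784). Nor were those of Creb3l2 and Ppp1r15b (0.259 and 0.498). Nupr1 was still called in both comparisons, and so were the rises of Bak1 and Slc7a11 at week 1.

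Markers of cell types also moved with the groups. The summed level of 10 smooth muscle markers was 5370 to 7055 CPM in saline, 1768 to 3158 in PPE week 1 and 4828 to 10850 in PPE week 2, and 7 of the 10 fell at week 1, 0 changed at week 2 against saline and 7 rose between the weeks. The 10 macrophage markers summed to 2125 to 2609, 4244 to 5420 and 1334 to 3550 CPM, with 3 higher at week 1, 0 changed at week 2 and 2 lower between the weeks. Of 9 tested fibroblast markers, 3 fell at week 2 against saline (Dcn, Lum and Dpt), 4 fell at week 1 and 1 rose between the weeks. With scaling by total count the 3 at week 2 were not called (adjusted p = 0.189, 0.464 and 0.227), and at week 1 Dpt alone was. The summed fibroblast level, 55392 to 71384, 66150 to 86800 and 51204 to 76079 CPM, overlapped between saline and both PPE groups. That sum includes the collagens Col1a1, Col1a2 and Col3a1 without weighting, so it can follow collagen transcripts rather than the number of fibroblasts. Ly6a was at 0, which is not read as absence, given how reads appear to have been counted.

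B and plasma cells, which are rich in ER, had markers at low levels. The 10 of them, with Igll1 at 0 and Cd79b under 10 counts, summed to 79.9 to 131 CPM in saline, 112 to 161 in PPE week 1 and 72.2 to 156 in PPE week 2, and none of the 6 tested passed the test. The 8 endothelial markers (642 to 850, 675 to 785 and 708 to 1184 CPM, with Pecam1 and Tek at 0) and the 8 adipocyte markers (629 to 1806, 287 to 553 and 188 to 2641 CPM, Cidec under 10 counts) gave 1 call in all, Vwf, higher at week 2 than at week 1. As for Ly6a, the values of 0 for Igll1, Pecam1 and Tek are not read as absence. The part of cell makeup in the fall of the folding genes was not tested.

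In the authors' deposited tables of their own comparisons, 6 of the 7 genes named above were also lower at week 2 (Hsp90b1, Dnajc3, P4hb, Pdia3, Ssr3 and Kdelr3), and Ssr1 had an adjusted p of 0.0782, where 1.63% of all rows of that table were lower. The authors' deposited table for week 1 called Dnajc3 and Kdelr3 lower and Ssr2 higher, where 8.18% of all rows were lower and 9.23% higher, so that these 3 are no more than that background. The authors' deposited log2 fold changes had a median over the members of -0.07 at week 1 and -0.43 at week 2, beside -0.02 and 0.02 over all rows. These tables rest on the same counts.

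**Figure D4:**
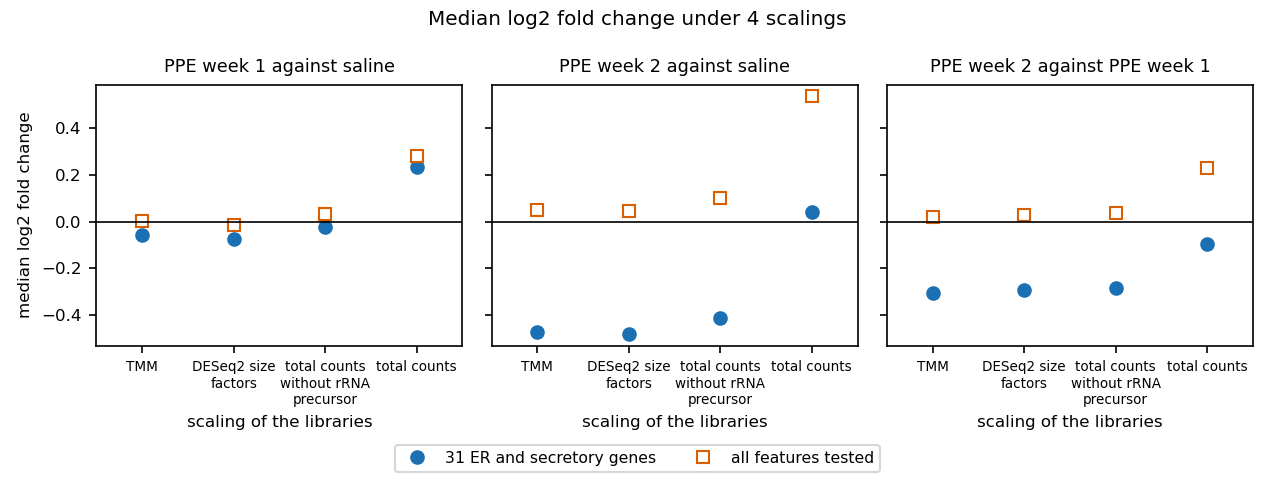
Median log2 fold change of the 31 tested genes (filled circles) and of all tested features (open squares) under 4 ways of scaling the libraries, in 3 panels for the 3 comparisons. At PPE week 2 against saline the genes stand lower than all features under each scaling, at -0.47 and 0.05 with TMM and at 0.04 and 0.54 with total counts, while at week 1 the circles and squares lie close together.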

How the data were processed

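The authors deposited raw counts per RefSeq accession for 12 libraries, and for each PPE group against control a table of log2 fold changes, p-values and adjusted p-values; the adjusted values are used as deposited. Libraries were made from total RNA with a TruSeq v2 kit, per the labels' protocols. Among tools, bcl2fastq and DESeq2 are named in the submitters' processing notes, with build mm10. Which aligner and counter were used is not given in the sources used here. Each library is from a separate animal as far as the labels say; p-values measure the spread between these libraries.

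Accessions were named through RefSeq's GRCm38.p6 table (34419) and GENCODE M21 (197), leaving 139 of 34755 unnamed. The counts were fitted with edgeR 4.0.16 in R 4.3.3 (filterByExpr defaults, TMM, robust quasi-likelihood, 1 mean per group over 12 libraries, two-sided). The accession of highest mean CPM stood for a gene. Every library is given for members called in a comparison and for Ddit3, Sec24d and Sec61a1. From other lists up to 3 called genes of lowest adjusted p per comparison were named, Stt3a and Ostc beyond them. The members and lists were chosen with earlier results of these data known. Lengths come from GENCODE transcripts. The fitting code was tried on simulated data with changes larger than those of the members called. That does not tell how well changes of their size are found. Alternatives were DESeq2 1.42.0, limma 3.58.1 (voom), other scalings and filters, halved counts, summed accessions, 8 libraries, a replicate block, a ribosomal RNA covariate and leaving out each library.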

Additional observations from a re-analysis of the deposited data

Results flagged for a closer look

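Of 99 groups of 4 libraries looked at, 4 held a library whose gap to its nearest neighbour exceeded the critical share of the group's range in Dixon's test, a size that chance gives in about 1 in 20 groups. Hyou1 was at 100.1 CPM in PPE week 2 replicate 3, beside 139 to 145 CPM in the other 3 libraries of that group. Ddit3 was at 4.29 CPM in PPE week 2 replicate 1, beside 1.66 to 1.82 CPM. Herpud1 was at 116 CPM in saline replicate 1, beside 79.6 to 85.7 CPM. Sec61b was at 8.35 CPM in PPE week 1 replicate 1, beside 5.69 to 5.99 CPM.

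The PPE groups differed from each other for 6 genes (PPE week 2 against PPE week 1, edgeR). Both fold changes against saline use the day 7 controls, so whether the effect of elastase itself differed between the days cannot be told. The log2 fold change from week 1 to week 2 was -0.65 for Ssr3 (adjusted p = 0.00323), -0.57 for Pdia3 (0.00668), -0.50 for P4hb (0.00883), -0.43 for Ssr1 (0.0366), -0.62 for Edem1 (0.0376) and -0.59 for Ssr2 (0.0383).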

How the results depend on the processing

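Across 11 alternatives and 12 fits without 1 library, the direction of the member median was the same at week 2 except with scaling by total counts. That scaling gave medians of 0.23 at week 1 and 0.0428 at week 2 against saline and -0.10 between the PPE groups, with 2, 2 and 0 members higher and 0 lower in each, and Hsp90b1 at 0.0212 and Ssr1 at 0.0167 at week 2 against saline. The ribosomal RNA covariate gave medians of 0.0223, -0.27 and -0.21 and 0 members called. Total counts without the ribosomal RNA precursor gave 1 member higher at week 1, DESeq2's test 1 higher and 2 lower, and the 8 libraries alone 1 higher and 2 lower at week 1, then 2 lower at week 2 and 3 lower between the PPE groups. Leaving out 1 library gave 0 to 1 members higher and 0 to 2 lower at week 1 (median -0.15 to 0.00258, the latter without saline replicate 3), 3 to 8 lower at week 2 (-0.50 to -0.40) and 3 to 8 lower between the PPE groups (-0.37 to -0.28).

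With a replicate block, 1, 4 and 5 members were called lower in the 3 comparisons. Same-numbered libraries correlated at -0.09 to 0.04 after group means were removed and 0 of 12 correlated best with their own number, so no pairing by number was seen. Whether same-numbered libraries shared a batch cannot be told from these correlations. Depth limits Ddit3, Sec61b, Sel1l and Syvn1, with as few as 7, 21, 12 and 2 counts in a library.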

Other observations

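Some chaperones of the cytosol, which fold proteins outside the ER, fell. Of 16 tested, 3 fell at week 1 (Hsph1, Hsp90aa1 and Hsp90ab1, median of the 16 -0.37) and 5 at week 2 against saline (median -0.45, Hspa4 being at 0.03 with scaling by total count), and none rose against saline, where 3.91% and 1.35% of all features were called lower. Hsp90ab1, the constitutive HSP90, was at 871 ± 89.1 CPM in saline, 626 ± 60.4 in PPE week 1 and 519.8 ± 61.1 in PPE week 2 (SD, n = 4). Its log2 fold change was -0.48 at week 1 and -0.74 at week 2 (edgeR adjusted p = 0.0198 and 0.00423), and with scaling by total count neither call held (-0.20 and -0.25, adjusted p = 0.431 and 0.241). Under that scaling Hsph1 at week 1 and Hsp90aa1 at week 2 were still called. Hsp90aa1 at week 1 was not (adjusted p = 0.112), nor were Hspa8, Hsph1 and Hspa4 at week 2 (adjusted p = 0.0651, 0.0607 and 0.917). Hspa8, the constitutive HSC70, fell at week 2 against saline (-0.99) and between the weeks (-0.56, adjusted p = 0.258 with scaling by total count). The small heat shock protein Hspb1 rose from week 1 to week 2 (1.21).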
